A study of Mus musculus with 6 samples.

Results

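The 28 genes described here carry out, control or use cholesterol synthesis, and were taken by name from a table of 26852 mouse genes. They comprise 18 synthesis enzymes, 5 genes that set the sterol level and 5 genes of sterol transport, export and breakdown. The table compares midbrains dissected at E14.5 from Lmx1b fl/fl;Pitx3-Cre embryos (Lmx1b cKO, 3 libraries) with midbrains from Lmx1b wt/wt;Pitx3-Cre embryos (control, 3 libraries), all on a C57Bl/6 background and each library made from 2 pooled embryos. Cre was driven from the Pitx3 locus in both groups, so both carried the Cre allele at Pitx3, and the floxed gene was removed only in Pitx3-positive cells, whereas the RNA came from the whole dissected midbrain. The deposited values are group means of read counts divided by a size factor per library (normalized counts), from which the whole read count of every library was recovered for all 28 genes. Each recovered library is known by its genotype, though not by a sample number, and the libraries are named a, b and c within each group.

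Animal cells make cholesterol from acetyl-CoA through mevalonate, farnesyl diphosphate and squalene, which is then closed into the sterol ring and trimmed to cholesterol. When membrane sterol is low, Scap escorts the transcription factor SREBP2 (gene Srebf2) to the Golgi, where it is cut and released, and Insig proteins hold this step back when sterol is plentiful. SREBP2 binds sterol regulatory elements in the promoters of most synthesis genes, usually beside sites for the CCAAT-binding factor NF-Y and for Sp1, so that these genes tend to rise and fall together. Plasma lipoprotein cholesterol hardly crosses into the brain, and the embryonic midbrain therefore comes to depend on its own synthesis for growing membranes, with excess sterol leaving cells on Apoe particles loaded by Abca1 and Abcg1.

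The promoter letters are shown because the synthesis genes are compared below as a set under shared control. RefSeq promoter windows on GRCm38.p6, which run from 250 bases before to 50 bases after a start site, were found for 23 of the 28 genes. The sterol regulatory element searched on both strands as TCACNCCAC lay in the window of 1 of these 23 genes, Hmgcs1, and in those of 1.44% of 27025 genes. Only exact matches inside the window count, so the other genes are not shown to lack such an element. The 23 genes also include genes of sterol control, transport and breakdown. CCAAT, the core of the NF-Y site, was present on either strand for 19 of the 23 genes (82.6%) against 41.1% of all genes, and GGGCGG, the core of the Sp1 site, for 21 (91.3%) against 38.2%. All genes here are those with a window, whatever their level in these libraries. A gene with several windows also has more room for a match. The higher shares are thus not shown to be particular to sterol genes. The stretches below are written 5′ to 3′ on the strand that reads the motif forwards, with the motif in capitals. They lie at chr13:119690204-119690232 on the plus strand for the Hmgcs1 element, which ends 129 bases before the start site, at chr13:119690296-119690320 on the minus strand for the Hmgcs1 CCAAT that ends 41 bases before the start site, at chr10:76531533-76531557 on the minus strand for Lss, at chr9:42264310-42264334 on the plus strand for Sc5d, at chr5:28071186-28071210 on the minus strand for Insig1 and at chr15:82147124-82147148 on the minus strand for Srebf2.
Hmgcs1 sterol regulatory element: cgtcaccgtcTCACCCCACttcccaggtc
Hmgcs1 CCAAT: ccgctttcagCCAATgagaggcggg
Lss CCAAT: gcgagctcggCCAATcagagcatca
Sc5d CCAAT: aggcagccggCCAATcagcagccgg
Insig1 CCAAT: gccgccggagCCAATgggaggaggg
Srebf2 CCAAT: cttgcattagCCAATcggcgcgcga
The CCAAT stretches were chosen after the values had been seen. A match is a description of these letters and does not show that a factor is bound there.

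Between 27726797 and 33558961 reads per library were recovered on genes. The midbrain marks En1, En2 and Th were present in every library. Lmx1b itself stood at 1371 ± 102 (SD, n = 3) normalized counts in cKO libraries against 1398 ± 66.6 in the control, so this total is no check of the genotypes, and every direction given is that of the libraries labelled cKO. Of 12 genes of mdDA neurons, limma called 5 at an unadjusted threshold of 0.05, with adjusted p-values of 1.00 and no overlap between the groups, namely Aldh1a1 (log2 fold change 0.92), En1 (-0.40), En2 (-0.46), Ddc (-0.24) and Pitx3 (-0.41). The summed normalized counts of 12 genes of meninges, mesenchyme and bone were 14519 in cKO replicate c and between 849 and 2544 in the other 5 libraries, and Col3a1 of this list was higher in the cKO at an unadjusted p-value of 0.0364 in limma. Of 14 tested genes of radial glia and astrocytes, 4 were lower in the cKO at an unadjusted p-value under 0.05 (Slc1a3, Fabp7, Hes5 and Aldh1l1), and the sum of that list ran from 67297 to 75839 in the cKO and from 74786 to 79980 in the control. Of 8 blood genes Hba-a1 and Hbb-bs were higher at the same threshold, and the sum of 13 genes of endothelial cells and pericytes did not overlap, at 13475 to 13899 against 12938 to 13453 (exact permutation test, two-sided, p = 0.1). In bulk tissue, fewer cells of a type and less RNA per cell cannot be told apart.

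To examine whether sterol genes differed between the midbrains, limma with voom weights was run on 17126 genes whose mean reached 10 normalized counts, all 28 cholesterol genes among them. The cholesterol genes differed little between the groups, with a median log2 fold change (cKO against control) of -0.0045 beside 0.0011 for all genes tested. The single values ran from -0.20 for Srebf1 to 0.23 for Ebp, and 18 of the 28 genes lay within 0.1 of 0 on the log2 scale. At an unadjusted p-value under 0.05, 1 gene was higher (Sc5d) and 1 lower (Srebf1), where 2.76% of all genes tested passed this threshold, 1.15% higher and 1.61% lower in the cKO. After Benjamini-Hochberg adjustment over all genes 0 of the 28 genes, and 0 of all genes (0%), had a p-value under 0.05, while limma with voom weights gave 472 genes and limma-trend 476 at an unadjusted p-value under 0.05. The libraries of the groups overlapped for each of the 28 genes. They did not overlap for 7.57% of all genes tested, a share that would give only a few of 28 genes.

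**Figure D1:**
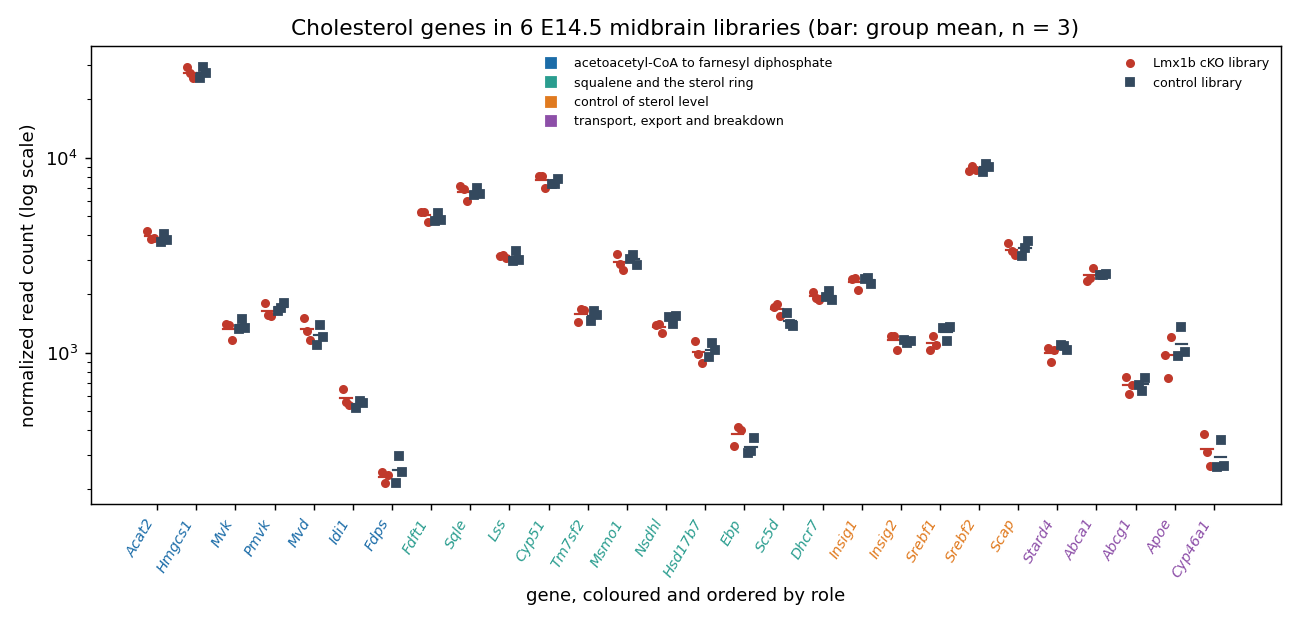
Normalized read count on a log scale for each cholesterol gene in the 3 Lmx1b cKO libraries (red circles) and the 3 control libraries (dark squares), with a bar at each group mean and gene names coloured by role. The red and dark points of every gene overlap in range, from Hmgcs1 at between 25639 and 29315 to Fdps at between 213 and 295.

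The data bound the size of any difference in the whole dissected midbrain, and do not bound one confined to the Pitx3-positive cells. For 20 of the 28 genes (71.4%) the 95% interval of the fold lay inside a 1.25-fold change in either direction, which was so for 51.5% of all genes tested and for 79.2% of the 11070 genes within the same range of mean count. The 8 genes whose intervals reached further were Mvd, Idi1, Fdps, Ebp, Sc5d, Srebf1, Apoe and Cyp46a1.

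**Figure D2:**
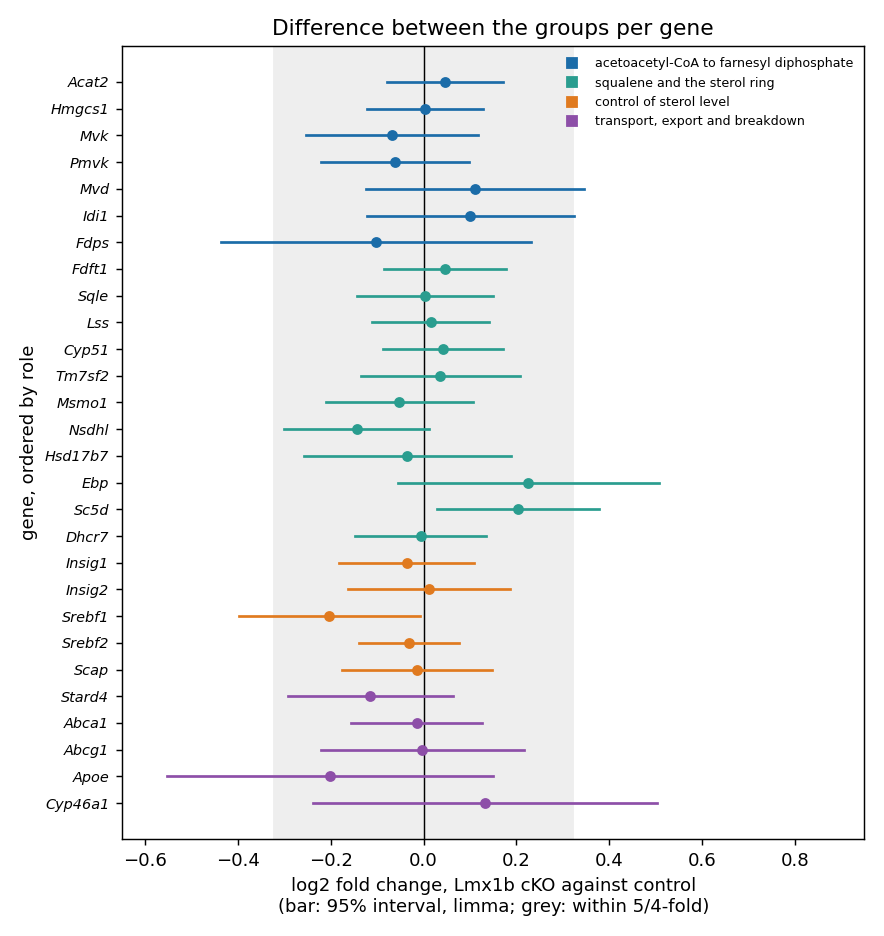
Log2 fold change of each cholesterol gene (points, cKO against control) with its 95% interval from limma (bars), ordered and coloured by role, where the grey band marks changes within 1.25-fold. Only the intervals of Sc5d and Srebf1 leave out 0, and those of 20 genes stay inside the band.

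The 7 enzymes from acetoacetyl-CoA to farnesyl diphosphate had log2 fold changes between -0.10 (Fdps) and 0.11 (Mvd), and limma called 0 of the 7 at the unadjusted threshold of 0.05. Hmgcs1 (ENSMUSG00000093930, chromosome 13 of GRCm38, 119690379 to 119708260), which makes HMG-CoA, the substrate of the committed step to mevalonate, had 29315, 27200 and 25639 normalized counts in the cKO libraries against 25711, 29284 and 27096 in the control libraries. The groups covered almost the same range, and the fold of 1.00 had a 95% interval from 0.919 to 1.09. Acat2, which joins acetyl-CoA units at the first step, had 3970 ± 198 (SD, n = 3) in the cKO against 3849 ± 196 in the control. Mvk and Pmvk, the kinases that add phosphate to mevalonate, had log2 fold changes of -0.069 and -0.061, and Mvd, which turns the product into isopentenyl diphosphate, had 1324 ± 175 and 1233 ± 146 normalized counts. Idi1, the isomerase that supplies the second isoprene unit, had 584 ± 61.4 and 546 ± 25.0, and Fdps, which joins the units to farnesyl diphosphate, had 231 ± 15.9 and 251 ± 40.8.

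The counts of some of these enzymes are only part of what their transcripts may give, since 4 of the 28 genes have annotated copies that match over at least 200 bases at 95% identity or more. The Fdps copy Gm3571, 98.9% identical over 1062 bases, stood at 2279 ± 203 normalized counts (SD, n = 3) in the cKO against 2296 ± 178 in the control, so that Fdps itself held 8.21% of the sum over the gene and its 3 listed copies. That sum was 2938 ± 247 in the cKO against 2940 ± 234 in the control. Idi1 held 47.6% of its sum with Gm13502, which matched over 684 bases at 100% identity, and the sum was 1241 ± 139 and 1133 ± 31.6 normalized counts (exact permutation test, two-sided, p = 0.2). Fdft1 and Acat2 held 90.9% and 93.3% of their sums with Gm6781 and Acat3, and Acat2 also matched Tcp1 over 445 bases. How the counting divided reads among such copies is uncertain, and the low counts of Fdps and Idi1 are not measures of their transcripts alone.

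Of the 11 genes from squalene to the end of the sterol ring, 1 passed the unadjusted threshold. Sc5d (ENSMUSG00000032018, chromosome 9, 42251595 to 42264256), the desaturase that makes 7-dehydrocholesterol, had 1712, 1783 and 1545 normalized counts in the cKO libraries against 1601, 1403 and 1363 in the control libraries. Replicates a and b of the cKO lay above every control library, while cKO replicate c fell below control replicate a. The cKO was higher by a log2 fold change of 0.20 (standard error 0.080, limma, unadjusted p = 0.0265, adjusted p = 1.00), and the exact two-sided permutation test gave p = 0.2, 0.1 being the smallest value this design allows. The unadjusted p-value stayed under 0.05 in 2 of the 6 fits that left out 1 library. It did not without cKO replicate a, cKO replicate b, control replicate b or control replicate c, where the log2 fold changes were 0.19, 0.16, 0.18 and 0.16 and the highest p-value was 0.106.

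Ebp and Nsdhl, both X-linked, gave the next lowest p-values in this arm, in opposite directions. Ebp, the isomerase that moves the ring double bond, had 334, 415 and 400 normalized counts in the cKO against 306, 311 and 364 in the control. Replicates b and c of the cKO were above the control range and replicate a was inside it, and the log2 fold change of 0.23 had a 95% interval from -0.056 to 0.51. Nsdhl, which takes part in removing the C-4 methyl groups, had 1380, 1406 and 1254 in the cKO against 1519, 1404 and 1550 in the control. The groups overlapped by 1 library each, and the log2 fold change was -0.14 (limma, unadjusted p = 0.0664). In the fits without 1 library, Ebp ranged from 0.16 without cKO replicate b (unadjusted p = 0.280) to 0.33 without cKO replicate a (unadjusted p = 0.0273). Nsdhl ranged from -0.096 without cKO replicate c (unadjusted p = 0.236) to -0.19 without control replicate b (unadjusted p = 0.0354). The summed normalized counts of 4 Y-linked genes were between 3597 and 4938 in the cKO against between 2476 and 8585 in the control. With that sum as a covariate the log2 fold changes were 0.25 for Ebp (limma, unadjusted p = 0.0910) and -0.15 for Nsdhl (limma, unadjusted p = 0.0778), about as large as without it.

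The other 8 genes of this arm had log2 fold changes between -0.052 and 0.046. Sqle, the squalene epoxidase that is a known point of control, had 7193, 6896 and 5975 normalized counts in the cKO against 6442, 7021 and 6551 in the control. The cKO libraries bracketed the control libraries, and the fold of 1.00 had an interval from 0.905 to 1.11. Fdft1, which makes squalene, had 5089 ± 343 (SD, n = 3) and 4928 ± 241, and Lss, which closes the ring to lanosterol, had 3119 ± 60.8 and 3091 ± 200. Cyp51, the lanosterol demethylase, had 7717 ± 598 and 7493 ± 281. The demethylation enzymes Msmo1 and Hsd17b7 had 2903 ± 275 and 1007 ± 130 in the cKO beside 3008 ± 173 and 1036 ± 89.2 in the control. The reductases Tm7sf2 and Dhcr7, of which Dhcr7 makes cholesterol from 7-dehydrocholesterol, differed by 0.036 and -0.0062 on the log2 scale. With the radial glia and astrocyte sum as a covariate, the log2 fold change of Hsd17b7 went from -0.035 to -0.21 (limma, unadjusted p = 0.0444), that of Ebp from 0.23 to 0.34 (limma, unadjusted p = 0.0371) and that of Pmvk, of the mevalonate arm, from -0.061 to -0.16 (limma, unadjusted p = 0.0442). Of the 28 genes, 9 share exon bases with another annotated gene, 1124 bases (26.7% of its exons) with Gm43738 on the same strand for Fdps, 774 bases with Ctsb on the opposite strand for Fdft1 and 532 bases with Vps51 on the same strand for Tm7sf2 among them, and the strand setting of the counting is not given in the sources used here.

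Among the 5 genes that control the sterol level, Srebf1 was lower at the unadjusted threshold. Srebf1 (ENSMUSG00000020538, chromosome 11, 60199089 to 60222581), which encodes SREBP1, the factor more concerned with fatty acid genes, had 1033, 1223 and 1093 normalized counts in the cKO against 1342, 1151 and 1359 in the control. Control replicates a and c lay above every cKO library, and control replicate b lay below cKO replicate b. The cKO was lower, at a log2 fold change of -0.20 (standard error 0.089, limma, unadjusted p = 0.0420, adjusted p = 1.00), and the exact two-sided permutation test gave p = 0.2. Here too 2 of the 6 fits without 1 library kept an unadjusted p-value under 0.05. Without cKO replicate a, cKO replicate c, control replicate a or control replicate c the log2 fold changes were -0.15, -0.19, -0.16 and -0.16, with p-values of up to 0.158. With the summed level of the radial glia and astrocyte list as a covariate, the log2 fold change of Srebf1 was -0.091 (limma, unadjusted p = 0.341). That sum ran lower in the cKO, with overlap, at 67297 to 75839 against 74786 to 79980 in the control. The level of this list and the genotype therefore cannot be fully told apart in these libraries. The same holds for the other genes fitted with this covariate.

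The intervals of the other 4 genes of sterol sensing lay inside a 1.25-fold change. Srebf2, the main driver of sterol genes, had 8523, 9057 and 8611 normalized counts in the cKO against 8463, 9303 and 9014 in the control, and its fold of 0.979 had the narrowest interval of the 28 genes, from 0.909 to 1.05. The cKO libraries lay inside the control range. Scap had 3383 ± 254 (SD, n = 3) in the cKO against 3432 ± 303 in the control. Insig1, itself a target of SREBP2, had 2303 ± 176 and 2359 ± 93.1, and Insig2 had 1156 ± 107 and 1146 ± 24.3.

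Of the 5 genes of transport, export and breakdown, limma called 0 at the same threshold. Apoe (ENSMUSG00000002985, chromosome 7, 19696109 to 19699188), the main lipid carrier of the brain, made by glia and microglia, had 972, 742 and 1201 normalized counts in the cKO against 967, 1347 and 1012 in the control. It was the most variable of the 28 genes, with a coefficient of variation of 23.6% in the cKO beside 18.7% in the control, and the groups overlapped in part, with cKO replicate b below every control library and control replicate b above every cKO library. Its log2 fold change of -0.20 had a 95% interval from -0.55 to 0.15, and without 1 library it ranged from -0.36 (limma, unadjusted p = 0.0429) without cKO replicate c, the library with the high mesenchyme sum, to -0.028 (limma, unadjusted p = 0.850) without cKO replicate b. The sum of 12 genes of microglia and macrophages was between 1047 and 1093 in the cKO against between 1049 and 1196 in the control, and its part in the level of Apoe was not tested. With the radial glia and astrocyte sum as a covariate the log2 fold change of Apoe was -0.34 (limma, unadjusted p = 0.0877).

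Abca1, the pump that loads sterol onto Apoe, had 2328, 2417 and 2728 normalized counts in the cKO against 2506, 2497 and 2519 in the control. The control libraries lay close together, with a coefficient of variation of 0.442%, and inside the wider cKO range. Abcg1, which exports sterol to particles already formed, had 683 ± 66.8 (SD, n = 3) and 687 ± 54.8. Stard4, a carrier of sterol between membranes within the cell, had 992 ± 88.1 in the cKO against 1072 ± 33.7 in the control. Cyp46a1, the neuronal 24-hydroxylase by which the brain disposes of cholesterol, had 382, 311 and 263 normalized counts in the cKO against 259, 355 and 264 in the control. Both groups spread over the same range, and its interval for the fold, from 0.848 to 1.42, was the widest of the 28 genes on the log2 scale.

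Many of the synthesis genes ranked the libraries of each genotype in the same order. This pattern was noticed after the values had been seen, and is given as counts with no test. Of the 18 enzymes, cKO replicate c was the lowest cKO library for 14 (77.8%, against 32.4% of 17090 genes with reads in every library) and cKO replicate a was the highest for 12 (66.7% against 35.0%). Among the controls, replicate b was the highest for 13 (72.2% against 33.6%) and replicate a the lowest for 13 (72.2% against 36.1%). Both cKO replicate c lowest and control replicate b highest held for 10 of the 18 genes, namely Hmgcs1, Mvk, Mvd, Idi1, Fdft1, Sqle, Lss, Msmo1, Hsd17b7 and Dhcr7, and for 12.8% of all genes. Of the 20 fatty acid synthesis genes, cKO replicate a was the highest for 60%, cKO replicate c the lowest for 45%, control replicate b the highest for 55% and control replicate a the lowest for 35%, so the order is not shown to be particular to the sterol enzymes. The 18 genes share their libraries and are under shared control, so they are not independent witnesses of a library's level.

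In size, the median of the 18 enzymes was 0.079 above its group mean on the log2 scale in cKO replicate a, 0.0081 above in cKO replicate b and -0.11 in cKO replicate c. In control replicates a, b and c it was -0.063, 0.078 and -0.021, while the medians over all genes lay between -0.0034 and -0.00096 in the 6 libraries. Against this order, Ebp and Tm7sf2 were lowest in cKO replicate a, Sc5d was highest in control replicate a, and Cyp51 and Nsdhl were lowest in control replicate b. The Fdps copy Gm3571 was also highest in cKO replicate a and control replicate b, and lowest in cKO replicate c and control replicate c, with 2475, 2292 and 2071 normalized counts in the cKO libraries against 2203, 2501 and 2185 in the control libraries. Abca1 and Apoe instead had their highest cKO value in cKO replicate c. The sum of 14 genes of cycling cells was 7080, 9029 and 8492 in the cKO libraries, in the order a, b and c, against 10562, 6815 and 7928 in the control libraries, thus lowest within each group in the library with the highest sterol enzymes. The radial glia and astrocyte sum was likewise lowest in cKO replicate a and control replicate b. The sum of 9 of 12 listed neuron genes was 150766, 139063 and 137055 in the cKO against 138617, 144121 and 143001 in the control, in the order of the enzymes. The other 3, Tubb3, Dcx and Map2, were left out because their control counts were not recovered, and in the cKO they did not follow that order, Dcx and Map2 being highest in replicate c and Tubb3 in replicate b after division by the size factors. The sum of 4 Y-linked genes was 4423, 4938 and 3597 in the cKO against 2476, 7631 and 8585 in the control. It was thus lowest in cKO replicate c and control replicate a, but highest in cKO replicate b and control replicate c. The part of these cell types, of the Y-linked level or of the mesenchyme in cKO replicate c in this order was not tested.

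**Figure D3:**
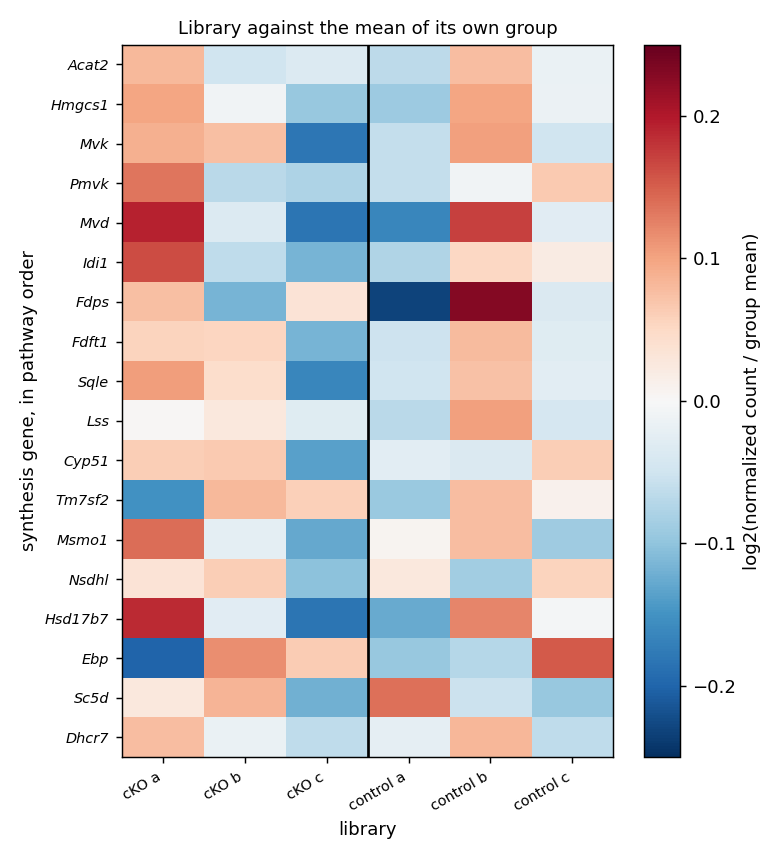
Log2 ratio of the normalized count in each library to the mean of its own group (colour, red above and blue below) for the 18 synthesis genes in pathway order, with cKO and control libraries on either side of the black line. The columns of cKO replicate a and control replicate b are mostly red, and those of cKO replicate c and control replicate a mostly blue.

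Compared per length, Hmgcs1 stood far above the others, at 5959 normalized counts per kb of exon over the 6 libraries, which placed it at percentile 99.2 of all genes tested. It was followed by Cyp51 at 1723, Acat2 at 1537, Srebf2 at 1229, Sqle at 1204 and Fdft1 at 1185 per kb. Cyp51 was above Acat2 within every library, although their ranges over the libraries overlapped. The order of Srebf2, Sqle and Fdft1 changed from library to library, and these neighbours did not differ beyond their spread. Of the 28 genes, 23 were above the median of all genes tested. Within the pairs of related regulators, Srebf2 at 1229 per kb was above Srebf1 at 213, and Insig1 at 754 was above Insig2 at 332, in every library. The lowest values were those of Abcg1 at 93.8, Cyp46a1 at 93.0 and Fdps at 57.4 per kb, the last being the gene with 8.21% of the sum over its copies. Lengths are those of all annotated exons merged, so that a gene with long rare transcripts, such as Lss at 10787 bases, has a lower value per kb.

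**Figure D4:**
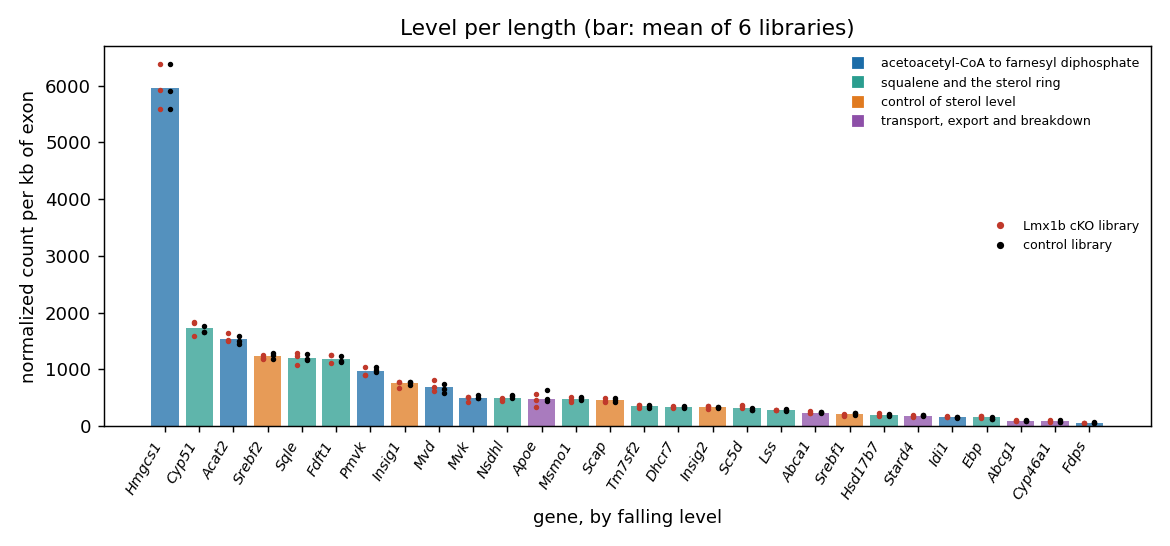
Normalized count per kb of merged exon for each cholesterol gene, as the mean of 6 libraries (bars, coloured by role) and single libraries (red dots for Lmx1b cKO, black dots for control), in falling order. Hmgcs1 reaches 5959 and the next gene, Cyp51, 1723, with red and black dots at overlapping heights.

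Genes beyond the 28 were read from 2 further lists. Of 44 tested genes of sterol handling and isoprenoid synthesis, 1 was lower and 0 higher in the cKO at an unadjusted p-value under 0.05. Of all genes tested 2.76% passed this threshold, 1.15% higher and 1.61% lower, so the count for the list is near that share. The median log2 fold change of the list was -0.015. The lower gene was Mylip, which encodes a ubiquitin ligase that marks lipoprotein receptors for breakdown and is induced by the sterol-sensing LXR factors. It had 206, 190 and 218 normalized counts in the cKO against 263, 304 and 225 in the control, with every cKO library below every control library and a log2 fold change of -0.36 (standard error 0.15, limma, unadjusted p = 0.0341, adjusted p = 1.00). Of the 28 genes, Abca1, Abcg1, Srebf1 and Apoe are also known to be induced by LXR factors, and had folds of 0.990, 0.998, 0.869 and 0.869. This grouping was not planned, and no list of LXR targets was tested. Of 20 tested fatty acid synthesis genes limma called 0 at this threshold, and the median log2 fold change was 0.018. Their libraries did not overlap for Fads1 and Pnpla3, named after their values were seen, where 7.57% of all genes tested did not overlap either. Scd2, the most abundant desaturase of the list and likewise chosen after its values were seen, as was Fasn, stood at 33048 ± 1294 normalized counts (SD, n = 3) in the cKO against 33805 ± 1352 in the control, and Fasn had 21575 ± 1366 and 21817 ± 1946.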

How the data were processed

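Midbrain RNA was sequenced as 3 libraries per genotype. The submitters' processing notes name TopHat 1.0.14, Bowtie2 2.1.0, HTSeq 0.6.1p1, DESeq 1.10.1 and the build GRCm38.p4, while the methods name DESeq2. The deposited table gives coverage signal as group means of read counts, each scaled by the authors with a size factor for its library. Its ratio, log2 ratio and p-value columns, which the authors deposited as their own comparison, were not used. Another 3 lines name no gene and hold 31.8% of the mean counts.

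Size factors were read from the steps that 1 read makes in low means, and whole counts summing to each printed mean were sought, above a mean of 10000 within 30% of the group mean. The search had exactly 1 solution per group for 26801 genes (99.8%). The search was less certain above that mean, where only Hmgcs1 of the 28 genes lies. The test, on genes whose mean reached 10, was that of limma 3.58.1 (R 4.3.3), two-sided, with voom weights and genotype as the only term. Recovery and test were tested on simulated data. The p-values measure the spread between pooled libraries. Names and exons came from GENCODE M21, with 26693 genes matched. Python 3.11.15, numpy 2.4.6, pandas 2.3.3, numba 0.67.0 and matplotlib 3.10.9 were used.

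Members, lists and tests were chosen with earlier results of these data known. The text names all 28 genes, some of their copies and of the genes that share their exon bases, and Lmx1b. It also names listed genes with an unadjusted p-value under 0.05 and defining marker genes, and others only as chosen after their values were seen. The alternatives were limma-trend with pseudocounts of 1 and 10, other size factors, minimum means of 100 and none, covariates, a threshold of 0.01, centring, and leaving out each library.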

Additional observations from a re-analysis of the deposited data

How the results depend on the processing

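The number of cholesterol genes with an unadjusted p-value under 0.05 was 2 with all libraries and ranged from 0 (without control replicate c) to 2 in the fits that left out 1 library. It was 4 with the glial level as a covariate (Ebp and Sc5d higher, Hsd17b7 and Pmvk lower) and 0 at a threshold of 0.01. The number among all genes moved from 472 to 307 with a minimum mean of 100, 974 with no minimum mean, 1064 with the glial level as a covariate and 70 at a threshold of 0.01, and ranged from 342 to 653 without 1 library. Fewer or more genes tested and the stricter threshold act by construction, and the cause under the covariate was not tested. With an adjusted threshold of 0.05, 0 of the 28 genes passed in any fit. The median log2 fold change of the 28 genes was -0.080 with the glial level as a covariate and lay between -0.048 and 0.028 without 1 library, where the pooled SD of that median between libraries is 0.075. Of 420 values of single cholesterol genes under 15 alternatives, 405 kept their side of the threshold, 9 lost it, 6 gained it and 0 called values changed sign, while 48 values without a call did. The submitters number the libraries alike within each group, and whether the numbers mark pairs is not stated. No paired analysis was made, because the recovered counts cannot be assigned to these numbers. Intervals cover the spread between 3 libraries per group, and those of 8 of the 28 genes still held a 1.25-fold change.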
